A study of Homo sapiens with 3 samples.

Results

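Irinotecan traps topoisomerase I on DNA, and the genes examined here encode the proteins that repair the breaks and crosslinks such lesions can leave, together with the mismatch repair proteins. A list of 47 genes was taken by symbol from the array annotation, with each gene represented by the probe set that names it alone, and by the brightest one where several do. Of the 47 genes, 44 were measured among 18417 genes in all, and 3 (BRCA2, FANCA and FANCD2) had no single-gene probe set named here. The list covers recombination, break sensing, helicases and nucleases, the Fanconi anaemia genes, single-strand break repair, end joining and mismatch repair.

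RNA from 3 cultures of LoVo, an established human colorectal cancer line, was measured on Human Gene 1.0 ST arrays (Affymetrix), a single array for each culture. LoVo-R8 cells had been adapted to irinotecan in steps starting at 0.1 μM and ending at 8 μM. They were grown for the array in medium holding 8 μM irinotecan (LoVo-R8 with drug) or in medium free of it (LoVo-R8 without drug), and were set against parental LoVo, from which they derive. LoVo-R8 is a single resistant derivative, so what its arrays share cannot be told apart from what is particular to that derivative. A treatment text shared by all the labels mentions irinotecan 24 hours before RNA purification, and no source used here tells whether parental LoVo received it. The values are log2 levels from the robust multichip average (RMA), and 1 array per culture gives no replicate error, no test and no p-value for any value below. Differences are subtractions of log2 levels, counted at 2-fold (a log2 difference of 1) and at 1.5-fold (0.585). As a scale for single genes, 95% of all genes differed by less than 0.53 between the LoVo-R8 arrays, by less than 0.96 between LoVo-R8 with drug and parental LoVo, and by less than 0.95 between LoVo-R8 without drug and parental LoVo. Median levels over all probe sets lay between 6.94 and 6.95 on the 3 arrays, and 9 of 12 colon epithelial markers lay above the gene median on each of them, with a summed linear level over the list of 32002 in LoVo-R8 with drug and 30787 without drug, against 39391 in parental LoVo. The log2 differences of these markers from parental LoVo ran from -2.11 to 1.13 with drug and from -2.37 to 1.07 without drug, with CEACAM5 lowest and CDH17 highest on both arrays. Of 11 measured leukocyte, endothelial and fibroblast markers, 2, 2 and 1 lay above it on those arrays, and their summed linear level was 3560 with drug and 2916 without drug, against 1444 in parental LoVo. Of these markers CD68, a macrophage marker, was at 11.51 with drug and 11.12 without drug, against 9.64 in parental LoVo, and PTPRC, which marks leukocytes, was at 4.12 on all arrays.

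In homologous recombination, a broken end is resected and paired with the sister DNA, which makes the pathway most active after replication. End joining instead ligates the ends directly. The Fanconi anaemia proteins open up crosslinked DNA and hand it to nucleases and recombination, and mismatch repair removes errors left by the polymerase. LoVo is known as a line deficient in mismatch repair.

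The genes that moved furthest are introduced here by the DNA in front of them. The 250 bases before the RefSeq start are printed 5′ to 3′ for the 6 members with the largest difference in any comparison that have a promoter in the table. Capitals mark matches on either strand to the E2F motif (TTTCCCGC, TTTCGCGC, TTTGCCGC or TTTGGCGC), the CCAAT box (CCAAT) or the cell cycle homology region (TTTGAA). The sequences are from RefSeq, GRCh38.p14, at FANCB chrX:14873070-14873319 (minus strand), EXO1 chr1:241847954-241848203 (plus strand), RAD52 chr12:949695-949944 (minus strand), MSH6 chr2:47782895-47783144 (plus strand), MSH3 chr5:80654402-80654651 (plus strand), BLM chr15:90717096-90717345 (plus strand).
FANCB: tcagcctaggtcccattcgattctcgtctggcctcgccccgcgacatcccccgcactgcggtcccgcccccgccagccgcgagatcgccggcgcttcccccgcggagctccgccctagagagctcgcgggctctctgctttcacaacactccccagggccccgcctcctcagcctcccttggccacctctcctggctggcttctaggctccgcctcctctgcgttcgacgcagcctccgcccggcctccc
EXO1: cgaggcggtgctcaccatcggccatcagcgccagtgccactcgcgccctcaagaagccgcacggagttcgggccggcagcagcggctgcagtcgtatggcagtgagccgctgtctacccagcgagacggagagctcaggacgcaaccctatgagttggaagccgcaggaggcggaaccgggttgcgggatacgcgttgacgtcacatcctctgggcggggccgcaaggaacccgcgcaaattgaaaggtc
RAD52: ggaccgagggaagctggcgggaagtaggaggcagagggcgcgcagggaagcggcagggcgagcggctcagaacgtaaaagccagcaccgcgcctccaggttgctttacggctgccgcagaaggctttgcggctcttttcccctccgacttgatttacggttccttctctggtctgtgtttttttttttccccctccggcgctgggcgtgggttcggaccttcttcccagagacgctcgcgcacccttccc
MSH6: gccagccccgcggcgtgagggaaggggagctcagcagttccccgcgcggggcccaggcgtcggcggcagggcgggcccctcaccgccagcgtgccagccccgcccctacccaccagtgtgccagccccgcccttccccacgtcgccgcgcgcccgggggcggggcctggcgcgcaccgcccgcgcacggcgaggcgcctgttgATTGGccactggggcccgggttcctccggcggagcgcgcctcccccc
MSH3: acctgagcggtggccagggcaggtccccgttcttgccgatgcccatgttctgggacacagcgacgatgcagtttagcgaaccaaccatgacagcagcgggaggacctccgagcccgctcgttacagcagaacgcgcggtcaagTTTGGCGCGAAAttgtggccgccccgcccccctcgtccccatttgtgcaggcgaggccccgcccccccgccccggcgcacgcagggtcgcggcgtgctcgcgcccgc
BLM: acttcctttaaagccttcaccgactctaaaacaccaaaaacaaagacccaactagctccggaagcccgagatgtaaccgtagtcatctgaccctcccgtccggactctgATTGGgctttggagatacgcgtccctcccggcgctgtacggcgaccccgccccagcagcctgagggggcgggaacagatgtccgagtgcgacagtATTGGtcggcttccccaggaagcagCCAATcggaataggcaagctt
E2F proteins switch on genes of the entry into S phase, and the MSH3 stretch held a forward match 107 to 100 bases before its start that overlaps a reverse match at 103 to 96. BLM held 3 CCAAT boxes and MSH6 held 1, while no searched letters occurred in the FANCB, EXO1 and RAD52 stretches. The E2F letters occurred in 4 of 43 members with a RefSeq promoter (9.3%; FANCA, FANCC, MSH3 and PMS2) and in 2.79% of 27305 promoters of this length. The CCAAT box occurred in 44.2% of the members and in 33% of all promoters, and TTTGAA in 11.6% and 13.6%. Among 14237 promoters of measured genes the shares were 3.75% for the E2F letters, 34.4% for the CCAAT box and 10.6% for TTTGAA. FANCI, the furthest mover, had no promoter in the table. The members with and without a CCAAT box had like medians: 18 measured members with it had median log2 differences from parental LoVo of -0.03 with drug and -0.19 without drug, and 22 without it had 0.00 and -0.19. The 3 measured members with the E2F letters had medians of 0.04 with drug and 0.10 without drug. The 37 measured members without them had 0.00 and -0.19. For TTTGAA, 5 measured members with it had 0.16 and 0.00, and 35 without it had 0.00 and -0.19. A match is a run of letters and not a measured binding site.

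Few of the repair genes reached 2-fold. In LoVo-R8 without drug, 1 of 44 members (FANCI) lay 2-fold or more below parental LoVo, where 2.78% of all genes did, and 0 were at least 2-fold higher (1.64% of all genes). In LoVo-R8 with drug, 0 members were at least 2-fold higher (2.25% of all genes) or lower (2.3%). Between the LoVo-R8 arrays, 0 members were at least 2-fold higher with drug (0.527% of all genes) or lower (0.114%). These shares lie near or below the background, so passing 2-fold does not set the members apart.

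At 1.5-fold more members were lower than higher in the culture without drug, a direction that all genes shared. There, 7 members were lower than in parental LoVo, 15.9% against 8.84% of all genes, and 1 was higher, 2.27% against 4.37%. In LoVo-R8 with drug, 2 were lower and 2 higher (4.55% each), against 7.19% and 5.79% of all genes. Set against the culture without drug, the culture with drug had 7 members at least 1.5-fold higher, 15.9% against 2.87% of all genes, and 0 lower (1.08% of all genes). The median difference of the members was -0.01 with drug and -0.19 without drug relative to parental LoVo, and 0.08 between the LoVo-R8 arrays, while the median of all genes was 0 in each comparison. Genes above the median of the gene means had medians of -0.01 and -0.05 relative to parental LoVo in the cultures with and without drug, and 0.03 between the LoVo-R8 arrays. The member median between the LoVo-R8 arrays was 0.03 under repeated quantile normalization and 0.05 with a filter at the 50th percentile of level. The comparisons share arrays, so they are not independent of each other. LoVo-R8 without drug was the lowest array for 21 of 44 members (47.7%), as it was for 23.4% of all genes.

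Level bears on these shares, because 38 of the 44 members lie above the median of the gene means. Among the 9208 genes above that median, 13.2% were at least 1.5-fold lower and 6.43% higher in LoVo-R8 without drug relative to parental LoVo, against 18.4% and 2.63% of the 38 members. In LoVo-R8 with drug, 10.1% of these brighter genes were lower and 8.6% higher, against 5.26% and 2.63% of the 38 members. Between the LoVo-R8 arrays, 4.18% of the brighter genes were at least 1.5-fold higher with drug and 1.52% lower, against 15.8% and 0% of the 38 members. LoVo-R8 without drug was the lowest array for 47.4% of the 38 members and 35.6% of the brighter genes.

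**Figure D1:**
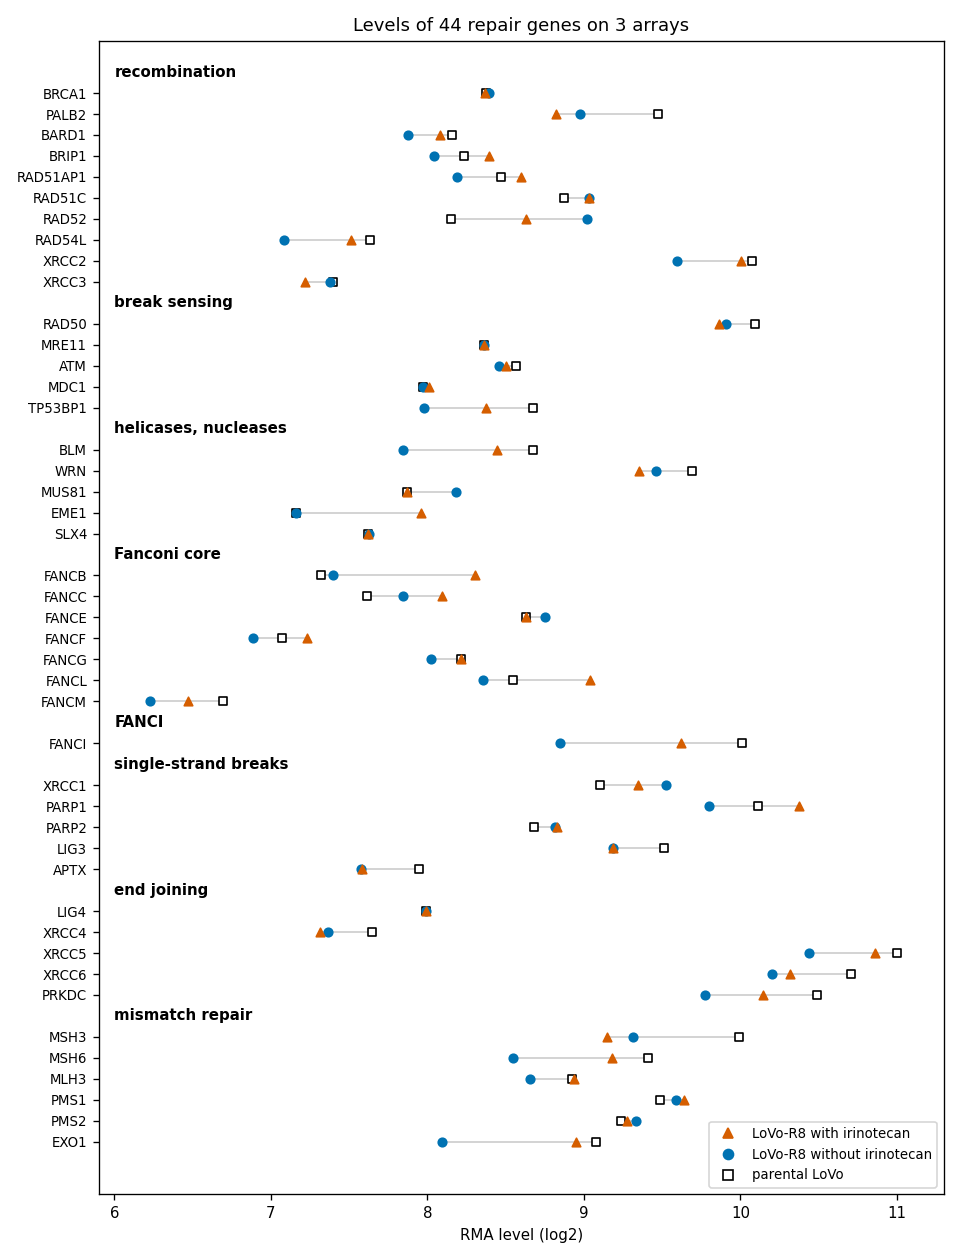
RMA log2 levels of the 44 measured repair genes (horizontal axis), grouped by pathway, in LoVo-R8 with irinotecan (triangles), LoVo-R8 without irinotecan (circles) and parental LoVo (open squares), 1 array each. FANCI, EXO1, MSH6 and BLM have their circle at the left, and FANCB, EME1 and FANCL have their triangle at the right.

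FANCI, whose protein is the partner of FANCD2 in the clamp that locks onto crosslinked DNA, was the member furthest from its parental level. Its level was 9.62 in LoVo-R8 with drug and 8.85 in LoVo-R8 without drug, against 10.01 in parental LoVo. The culture without drug thus held 0.447-fold of the parental level and the culture with drug 0.762-fold, and the drug-treated culture stood between the others. Counted from the lowest difference up among all genes, FANCI ranked 356 in LoVo-R8 without drug. FANCD2 itself was not analysed here.

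The Fanconi core complex is the ubiquitin ligase that acts on FANCI and FANCD2. This group had 7 measured genes, FANCM included. In the culture with drug 4 were above and 1 below parental LoVo (median 0.16), against 40.9% and 44.7% of all genes. In the culture without drug 3 were above and 4 below (median -0.18), against 48.9% and 38.5% of all genes. Between the LoVo-R8 arrays, 6 of 7 were higher with drug (median 0.25), against 39.4% of all genes and 55.8% of the brighter genes. FANCB, an X-linked subunit of the core, was at 8.30 in LoVo-R8 with drug and 7.39 in LoVo-R8 without drug, against 7.32 in parental LoVo. It stayed just under 2-fold, at 1.98-fold of parental LoVo with drug and 1.88-fold of the culture without drug. FANCL, the subunit that carries the ligase activity, was at 9.04 with drug and 8.36 without drug, against 8.55 in parental LoVo. Both genes were high in the drug-treated culture alone, with the other arrays within 0.19 of each other. FANCC, another core subunit, was at 8.09 with drug and 7.84 without drug, against 7.62 in parental LoVo. FANCM, a DNA translocase that recruits the core, had log2 differences of -0.22 with drug and -0.47 without drug. FANCE, FANCF and FANCG, further core subunits, lay within 0.19 of parental LoVo on both LoVo-R8 arrays, with FANCE and FANCG tied with parental LoVo in the culture with drug.

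Mismatch repair held 3 of the 7 members that were at least 1.5-fold lower in LoVo-R8 without drug, EXO1, MSH6 and MSH3. These are 3 of its 6 genes (50%), against 8.84% of all genes and 13.2% of the brighter genes. In LoVo-R8 with drug 1 of the 6 was at least 1.5-fold lower (16.7%), against 7.19% and 10.1%. EXO1, the exonuclease that removes the mismatched strand and also resects breaks, was at 8.95 in LoVo-R8 with drug and 8.10 in LoVo-R8 without drug, against 9.08 in parental LoVo. MSH6, a subunit of a mismatch recognition dimer for single mispairs, was at 9.18 with drug and 8.55 without drug, against 9.41 in parental LoVo. In both genes the culture with drug stood near parental LoVo, at 0.915-fold and 0.853-fold, and the culture without drug stood apart, at 0.507-fold and 0.550-fold. MSH3, the subunit for larger loops, showed another order. It was at 9.15 with drug and 9.32 without drug, against 9.99 in parental LoVo, so both LoVo-R8 arrays were low, at 0.559-fold and 0.627-fold. The MutL genes lay closer to parental LoVo: MLH3 had log2 differences of 0.02 with drug and -0.26 without drug, PMS1 0.15 and 0.10, and PMS2 0.04 and 0.10. PMS2 has many pseudogenes, and 8 further probe sets name it together with them, so its value is uncertain.

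Of 5 genes of break sensing and end processing, the 53BP1 gene TP53BP1, whose protein protects broken ends from resection, was the member that passed 1.5-fold. This share of 20% is near that of all genes past 1.5-fold in any comparison (18.4%) and below that of the brighter genes (27.2%). TP53BP1 was at 8.37 in LoVo-R8 with drug and 7.98 in LoVo-R8 without drug, against 8.68 in parental LoVo. The kinase gene ATM had log2 differences of -0.06 with drug and -0.11 without drug, and RAD50, of the complex that binds broken ends, -0.23 and -0.19. MRE11, the nuclease of that complex, was tied at 8.36 on all arrays. MDC1, a scaffold of damage foci, lay within 0.04 of parental LoVo. Its other probe set has identical values on every array, so it is not counted as a separate measurement. Of the 44 members, 9 (20.5%) had the same value on at least 2 arrays, as had 26.1% of all genes.

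**Figure D2:**
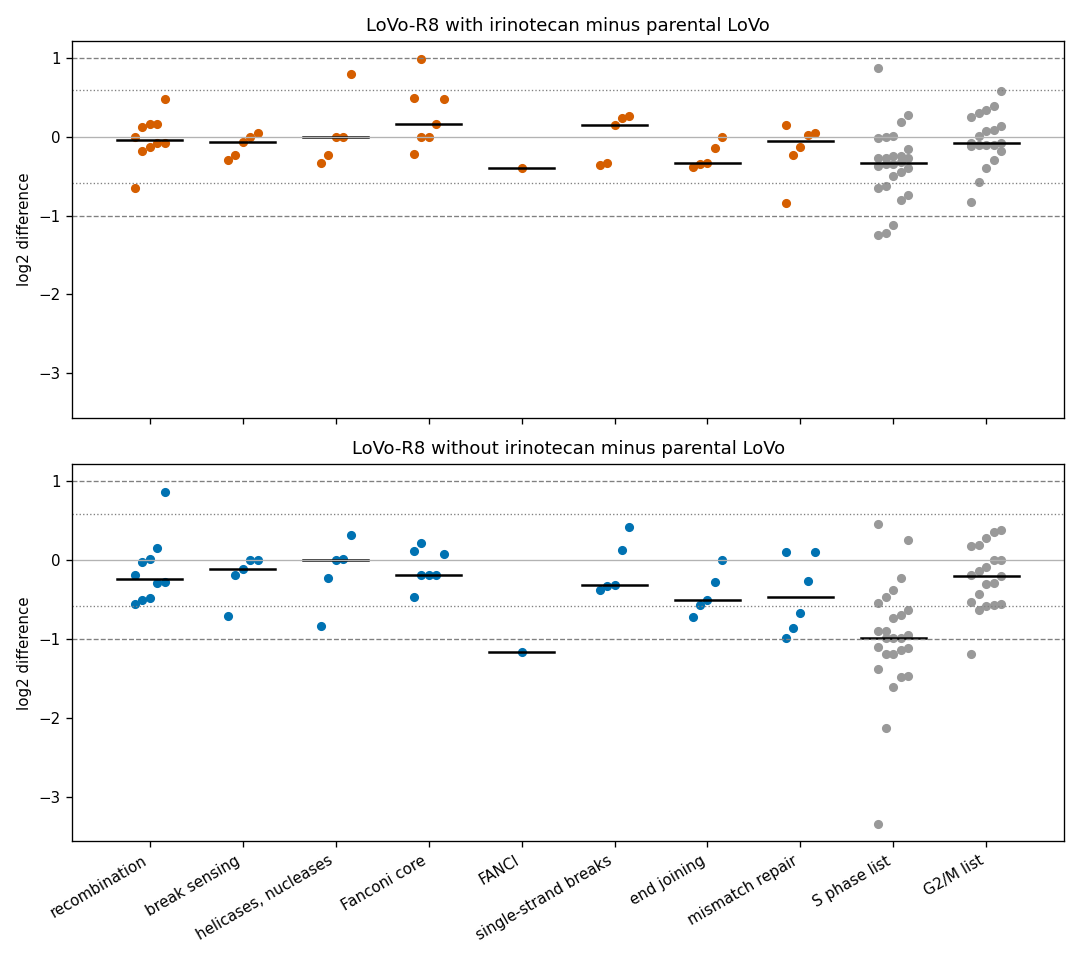
Log2 difference from parental LoVo (vertical axis) of each measured repair gene by pathway, in LoVo-R8 with irinotecan (upper panel) and without it (lower panel), with S phase and G2/M genes in grey; black bars are medians, dashed lines 2-fold and dotted lines 1.5-fold. FANCI lies below 2-fold in the lower panel (-1.16), and the S phase list has its medians at -0.33 and -0.99.

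The RecQ helicase gene BLM, which encodes the enzyme that dissolves recombination intermediates, was at 8.45 in LoVo-R8 with drug and 7.84 in LoVo-R8 without drug, against 8.67 in parental LoVo. Like MSH6 and EXO1 it was low in the culture without drug (0.562-fold) and nearer to parental LoVo with drug (0.854-fold). WRN, a related helicase with an exonuclease, had log2 differences of -0.34 with drug and -0.23 without drug. EME1 and MUS81 encode the subunits of 1 nuclease that cuts branched DNA, and they did not move together. EME1 was at 7.96 with drug and 7.16 without drug, against 7.16 in parental LoVo, or 1.73-fold of parental LoVo in the drug-treated culture. MUS81 was at 7.87 with drug and 8.19 without drug, against 7.87 in parental LoVo. The scaffold gene SLX4 lay within 0.01 of parental LoVo on both LoVo-R8 arrays.

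Among 10 measured genes of recombination, RAD52 and PALB2 passed 1.5-fold, in opposite directions. That is 20% of the group, near the 18.4% of all genes and below the 27.2% of brighter genes past 1.5-fold in any comparison. RAD52, whose protein anneals single strands, was at 8.63 in LoVo-R8 with drug and 9.02 in LoVo-R8 without drug, against 8.15 in parental LoVo. It was the single member at least 1.5-fold higher without drug (1.83-fold) and also the lowest member in the comparison of the LoVo-R8 arrays (log2 difference -0.39). PALB2, which links BRCA1 to BRCA2, was at 8.82 with drug and 8.97 without drug, against 9.47 in parental LoVo, so that both LoVo-R8 arrays lay below it. BRCA1 stayed at its parental level, with log2 differences of -0.01 with drug and 0.02 without drug, while its dimer partner BARD1 had -0.08 and -0.28. RAD54L, a motor protein gene of strand exchange, had -0.13 and -0.55, and XRCC2, another recombination gene, -0.07 and -0.48. RAD51C and XRCC3, whose proteins form a complex in recombination, had 0.16 and 0.16 and -0.18 and -0.02. RAD51AP1, a further recombination gene, had 0.12 and -0.28, and the helicase gene BRIP1 0.16 and -0.19. The median of the group was -0.04 with drug and -0.23 without drug.

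End joining genes were below parental LoVo on both LoVo-R8 arrays, except for LIG4. PRKDC, the gene of the DNA-dependent protein kinase, was at 10.15 in LoVo-R8 with drug and 9.77 in LoVo-R8 without drug, against 10.49 in parental LoVo, and passed 1.5-fold without drug (0.608-fold). XRCC5 and XRCC6, whose Ku80 and Ku70 proteins load that kinase onto ends, had log2 differences of -0.14 and -0.39 with drug and -0.56 and -0.50 without drug. XRCC4, the scaffold of the final ligase, had -0.33 with drug and -0.28 without drug, and LIG4, the ligase it carries, was tied at 7.99 on all arrays. The group had medians of -0.33 with drug and -0.50 without drug.

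Single-strand break repair, the first response to a trapped topoisomerase once its protein is removed, held 0 of 5 genes past 1.5-fold in any comparison. Of all genes 18.4% passed in some comparison, as did 27.2% of the brighter genes. A count of 0 among 5 therefore does not set this group apart. PARP1, whose protein detects nicks, was at 10.38 in LoVo-R8 with drug and 9.80 in LoVo-R8 without drug, against 10.12 in parental LoVo, and at 1.49-fold of the culture without drug it lay just under 1.5-fold. PARP2, a second nick sensor gene, had log2 differences of 0.15 with drug and 0.14 without drug. The scaffold gene XRCC1 had 0.24 and 0.42, and LIG3, the ligase gene it partners, had -0.33 on both arrays. APTX, which removes adenylate left by failed ligation, had -0.36 and -0.37.

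**Figure D3:**
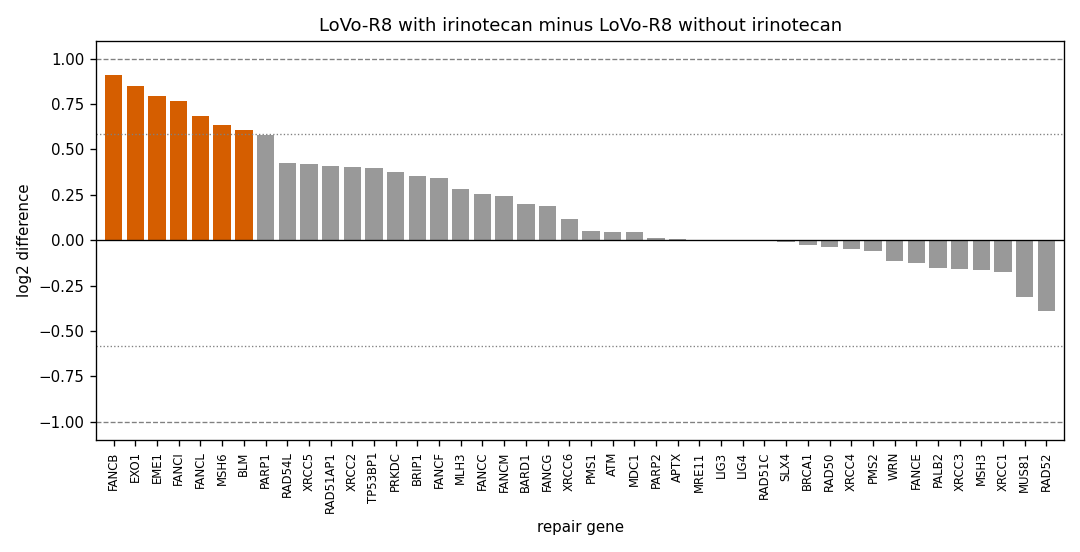
Log2 difference between LoVo-R8 with irinotecan and LoVo-R8 without irinotecan (vertical axis) for each measured repair gene, sorted, with dashed lines at 2-fold, dotted lines at 1.5-fold and the members at least 1.5-fold higher in orange. FANCB (0.91), EXO1 (0.85) and EME1 (0.79) lead, and RAD52 (-0.39) is last.

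Between the LoVo-R8 arrays, the 7 members at least 1.5-fold higher with drug were FANCB, EXO1, EME1, FANCI, FANCL, MSH6 and BLM, with log2 differences from 0.60 to 0.91. Their positions relative to parental LoVo differed. FANCI, EXO1, MSH6 and BLM were low in the culture without drug and below parental LoVo in the culture with drug, whereas FANCB, EME1 and FANCL were above parental LoVo with drug. Over all members, 27 were above and 14 below the culture without drug and 3 were tied, while 39.4% of all genes were above. Among the brighter genes 55.8% were above, against 60.5% of the 38 members there, and repeated quantile normalization gave 22 members above and 22 below.

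Genes of S phase were read beside the repair genes. Of 26 such genes, 3 lay 2-fold or more below parental LoVo in LoVo-R8 with drug and 11 in LoVo-R8 without drug, and 0 were higher on either array. Their median difference was -0.33 with drug and -0.99 without drug, and all 26 were above the culture without drug in the culture with drug (median 0.54). The sum of their linear levels was 14520 with drug and 9574 without drug, against 19040 in parental LoVo. G2/M genes differed less: of 20, 0 with drug and 1 without drug were at least 2-fold lower, with medians of -0.08 and -0.19. The part of S phase in the repair gene differences was not tested, and in these bulk samples fewer cells in S phase and less RNA per cell cannot be told apart. The licensing gene MCM4, the next measured gene to PRKDC on chromosome 8, was at 9.24 with drug and 8.25 without drug, against 9.63 in parental LoVo. PRKDC had the same order, which was common: 21 of the 26 S phase genes, 31.8% of the members and 15.7% of all genes had it. Among genes above the median of the gene means, 31.6% of the members and 24.9% of all had this order. A link between the 2 genes was not tested.

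Position in the genome was compared next, through the 5 nearest measured genes on each side in RefSeq order. In LoVo-R8 without drug, the central 95% of such neighbour medians over all genes ran from -0.31 to 0.24. The neighbours of FANCI had a median of -0.14, those of MSH6 0.07, those of EXO1 0.17, those of MSH3 -0.07, those of PRKDC 0.00 and those of RAD52 0.01, all within that range. The neighbours of BLM, on chromosome 15, had a median of -0.32, just below that range, against -0.83 for BLM. Of all such neighbour medians, 2.37% were as low or lower. The neighbours of TP53BP1, also on chromosome 15, had -0.22 against -0.70. The neighbours of APTX had -0.39, also below that range (1.32% as low or lower) and about the value of APTX itself. On the other side, the neighbours of BRCA1 had 0.243, just above the upper end of the range (0.241), against 0.02 for BRCA1. By its definition the range leaves some neighbour medians outside. In LoVo-R8 with drug, the neighbours of FANCB had a median of -0.01, those of EME1 0.16 and those of FANCL -0.02.

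Of the members with a RefSeq promoter, 20 have a gene starting within 1000 bases on the other strand, and for 15 measured members that gene was measured too. DCTN5, a dynactin gene starting 156 bases from PALB2, had log2 differences of -0.54 with drug and -0.61 without drug, beside -0.65 and -0.50 for PALB2. The following are the measured partners of the other members past 1.5-fold. MOSPD2, 352 bases from FANCB, had 0.54 with drug and 0.81 without drug, where FANCB had 0.99 and 0.08. MRPL27, a mitochondrial ribosome gene 45 bases from EME1, had -0.20 and -0.35, where EME1 had 0.79 and 0.00. MAP1A, 314 bases from TP53BP1, was tied at 5.94 on all arrays. DNAJA1, a chaperone gene 153 bases from APTX that was picked after its values were seen, was at 10.05 with drug and 9.25 without drug, against 11.05 in parental LoVo.

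**Figure D4:**
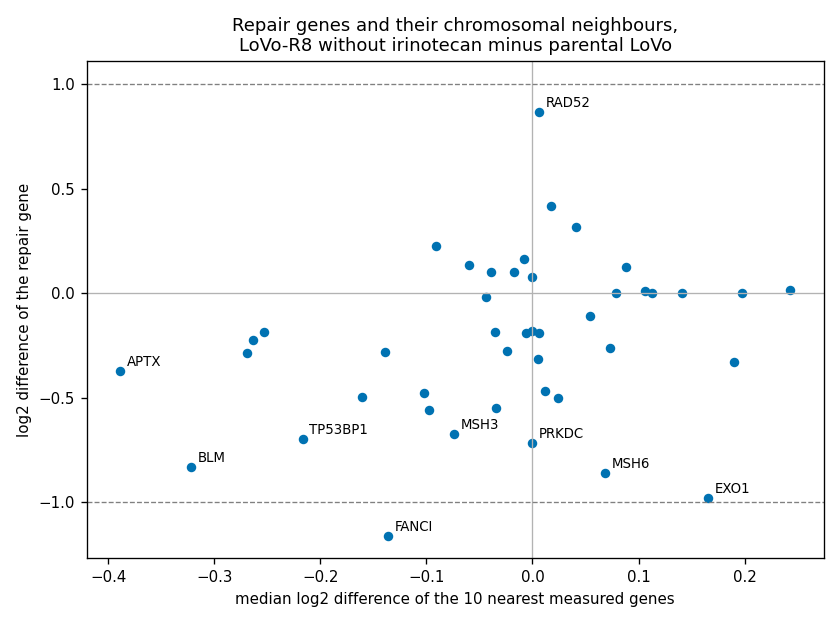
Log2 difference of each measured repair gene (vertical axis) against the median difference of its 10 nearest measured genes (horizontal axis), both for LoVo-R8 without irinotecan minus parental LoVo, with dashed lines at 2-fold. BLM and APTX have the lowest neighbour medians (-0.32 and -0.39), while EXO1 and MSH6 lie low with neighbour medians above 0.

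Other genes of the same pathways were read from 4 lists of 59 genes, of which 54 were measured. In LoVo-R8 with drug, 3 were at least 2-fold higher than in parental LoVo and 0 lower, or 5.56% and 0% against 2.25% and 2.3% of all genes. In LoVo-R8 without drug 2 were higher and 1 lower, or 3.7% and 1.85% against 1.64% and 2.78% of all genes. ABRAXAS1, a scaffold of the BRCA1-A complex, was at 10.37 with drug and 9.93 without drug, against 8.79 in parental LoVo. SFR1, a recombination cofactor gene, was at 9.19 and 9.22, against 8.15 in parental LoVo, and both LoVo-R8 arrays were high for each of these genes. RAD54B, a paralog of RAD54L named after its value was seen, was at 8.86 with drug and 8.01 without drug, against 7.39 in parental LoVo. GEN1, a resolvase gene, was the lower one, at 8.80 with drug and 8.77 without drug, against 9.77 in parental LoVo. POLQ, the polymerase gene of an alternative end joining route, had log2 differences of -0.18 with drug and -0.83 without drug, and FIGNL1 -0.07 and -0.63. In the crosslink list 0 of 16 reached 2-fold, with the nuclease gene FAN1 at -0.39 and -0.66. Of the other break signalling genes, PAXIP1 had -0.49 and -0.70, BABAM1 -0.31 and -0.59, and the ubiquitin ligase gene RNF168 -0.04 and -0.56. In the list of end joining and strand break genes 0 of 10 reached 2-fold, with APLF highest at 0.76 and 0.84. Over the 54 genes the median difference was -0.02 with drug and -0.08 without drug.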

How the data were processed

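RNA (300 ng) of the 3 cultures was measured on 1 array each. The authors deposited log2 levels made by RMA with background correction, quantile normalization and median polish. Affymetrix Expression Console 1.1 is named in the submitters' notes, and Bioconductor tools in R in the paper. The methods describe a filter on detection calls, and the deposited values still cover all 33297 probe sets without a gap.

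Genes were assigned to probe sets from the platform annotation: 19460 probe sets name 1 gene, 1754 several, and 12083 are unnamed here. Each of 18417 genes took its brightest single-gene probe set, and 18389 were matched by Entrez identifier to RefSeq (GRCh38.p14) for gene order. Log2 levels were subtracted between arrays, and no test was run, since no group has replicates; the number of arrays limits the precision. Python 3.11.15 with numpy 2.4.6, pandas 2.3.3, statsmodels 0.14.6 and matplotlib 3.10.9 was used, and the calculation was tested on simulated data. Values on all arrays are given for members at or past 1.5-fold in any comparison, and of the other pathway lists for genes with the largest differences without drug. The rule for members took in 12 of 44 (27.3%), against 18.4% of all genes. Among genes above the median of the gene means it took in 28.9% of the 38 members and 27.2% of all. Passing this rule therefore does not set the brighter members apart. The members and lists were chosen with earlier results of these data known. Alternatives were the threshold (1.5-fold or 3-fold), median centring, loess (span 0.3, 3 iterations), repeated quantile normalization, the mean over probe sets, and filters at the 25th or 50th percentile of level.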

Additional observations from a re-analysis of the deposited data

Results flagged for a closer look

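Of the measured repair genes, 5 lay at least 0.1 above parental LoVo in LoVo-R8 with drug and at least 0.1 below it in LoVo-R8 without drug. The share of all genes that did so was not counted, so the count does not set the members apart. Each difference from parental LoVo given below lay within the spread that held 95% of all genes. With 1 array per culture the difference between the cultures was not tested. FANCL differed most between the LoVo-R8 arrays (log2 difference with minus without drug 0.68), at 0.49 with drug and -0.19 without drug relative to parental LoVo. PARP1 differed by 0.58 (0.26 with drug and -0.32 without drug), and RAD51AP1 by 0.41 (0.12 and -0.28). BRIP1 differed by 0.35 (0.16 and -0.19), and FANCF by 0.34 (0.16 and -0.18).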

How the results depend on the processing

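The counts of members at 2-fold changed with the threshold and with no other alternative run. Relative to parental LoVo, at 1.5-fold 2 members were higher and 2 lower in LoVo-R8 with drug, and 1 was higher and 7 lower in LoVo-R8 without drug; at 3-fold 0 were lower without drug (0.977% of all genes). Between the LoVo-R8 arrays 7 were higher with drug at 1.5-fold. Under the normalizations tried, this last count ran from 5 (repeated quantile normalization, where BLM and MSH6 fell under 1.5-fold) to 8 (median centring, where PARP1 passed), and the count lower without drug relative to parental LoVo ran from 7 to 8. With repeated quantile normalization, 22 members were above and 22 below the culture without drug in the culture with drug, against 27 and 14 as deposited. Normalization moved the median of all genes by at most 0.02. FANCI without drug ranged from -1.17 to -1.08, and EXO1 (-0.99 to -0.88) and FANCB with drug (0.97 to 0.99) stayed under 2-fold. A filter at the 50th percentile removed 1 member. No paired analysis was possible because each group has 1 array.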
